A study of Danio rerio with 6 samples.

Results

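The Igf binding protein family was described in hair cells and surrounding cells of the adult zebrafish inner ear. Its members were the 10 genes igfbp1a, igfbp1b, igfbp2a, igfbp2b, igfbp3, igfbp5a, igfbp5b, igfbp6a, igfbp6b and igfbp7, matched by symbol among 31387 genes of the expression table, and all 10 were found. Hair cells, which turn sound and motion into nerve signals, were GFP+ cells of the strain Tg(pou4f3:GAP-GFP)s273t, in which the promoter of the hair cell gene pou4f3 drives a membrane-bound green fluorescent protein. Surrounding cells were the GFP-neg cells of the same 3 organs, the lagena, utricle and saccule. By the labels both groups came from this strain, from females of 11 to 13 months with no treatment named, and each sample pooled 2000 cells. There were 2 biological replicates of hair cells and 1 sample of surrounding cells. Each was sequenced as 2 technical replicates, which were averaged. WT stands in the names of the surrounding cell libraries, without explanation in the labels.

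Igf binding proteins are secreted proteins that hold insulin-like growth factors outside the cell. They keep Igf ligands from the receptor, carry them, or release them when the binding protein is cleaved by proteases such as pappalysins. In zebrafish most members exist as a pair of paralogs, marked a and b, left by the genome duplication of teleost fishes. In zebrafish embryos igfbp3 is known for a part in the formation of the inner ear and its hair cells, and igfbp5a for its role in ionocytes of the skin.

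Expression is given as RPKM, reads scaled to gene length and to the mapped reads of the library, so that levels can be set beside each other between genes. The mapped reads numbered between 15843692 and 51566819 per library, and hair cell replicate 2 was 3.21-fold deeper than replicate 1. Hair cell markers were high in hair cells, with 9 of 10 tested and all 9 called higher, and atoh1a was too low to test, at under 1 RPKM in every sample. Over all genes tested 17.7% were called higher and 18.0% lower. Genes were tested only where some sample reached 1 RPKM. Of the 9, all but s100s and pvalb9 reached it in hair cells alone, so the filter favours this direction. The promoter of pou4f3 also drives the GFP by which the cells were picked. Of the supporting cell markers 6 of 7 tested were also called higher in hair cells, of which tecta and otogl reached 1 RPKM in hair cells alone. The marker sox2 had 1 read in hair cell replicate 1 (0.0152 RPKM) and 0 reads in the other samples, too few to compare them. Keratins and epithelial markers were lower in hair cells for all 7 members, of which krt91 and krt97 reached 1 RPKM in the surrounding cells alone.

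Of the Igf binding protein genes, 4 differed between hair cells and surrounding cells. The genes igfbp5a and igfbp3 were higher in hair cells, by 32.2-fold and 4.23-fold in mean RPKM. The genes igfbp7 and igfbp6b were lower in hair cells, and the most abundant member of the family, igfbp5b, stood at about the same level in both. A gene was called where limma gave a Benjamini-Hochberg adjusted p under 0.05 over all 15803 genes tested and a difference of at least 1 on the log2(RPKM + 1) scale, always hair cells minus surrounding cells. Of the 10 members 9 reached 1 RPKM in some sample and were tested. The genes igfbp7 and igfbp6b reached it in the surrounding cells alone, and igfbp1b in hair cells alone. For these genes the filter itself favours a difference in the direction seen. Of the 9 tested, 2 (22.2%) were called higher and 2 (22.2%) lower, against 17.7% and 18.0% of all genes tested. In either direction 4 of 9 were called, against 35.8% of all genes. These shares are near the background, so the counts alone say nothing particular about the family. The median difference of the tested members was -0.02, against 0.15 over all genes tested.

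The fit rested on the spread between the 2 hair cell replicates and took the single sample of surrounding cells to vary as much as they did. With 2 samples against 1, the smallest p of an exact permutation test is 0.333. A prefix in the library names is common to surrounding cells and hair cell replicate 1 but not replicate 2, and the labels do not say what it marks. Within that prefix, replicate 1 minus surrounding cells gave 4.29 for igfbp5a, 2.06 for igfbp3, -1.37 for igfbp6b and -3.32 for igfbp7, in the same directions and with no test. In these bulk samples, fewer cells that express a gene and less RNA per cell cannot be told apart.

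**Figure D1:**
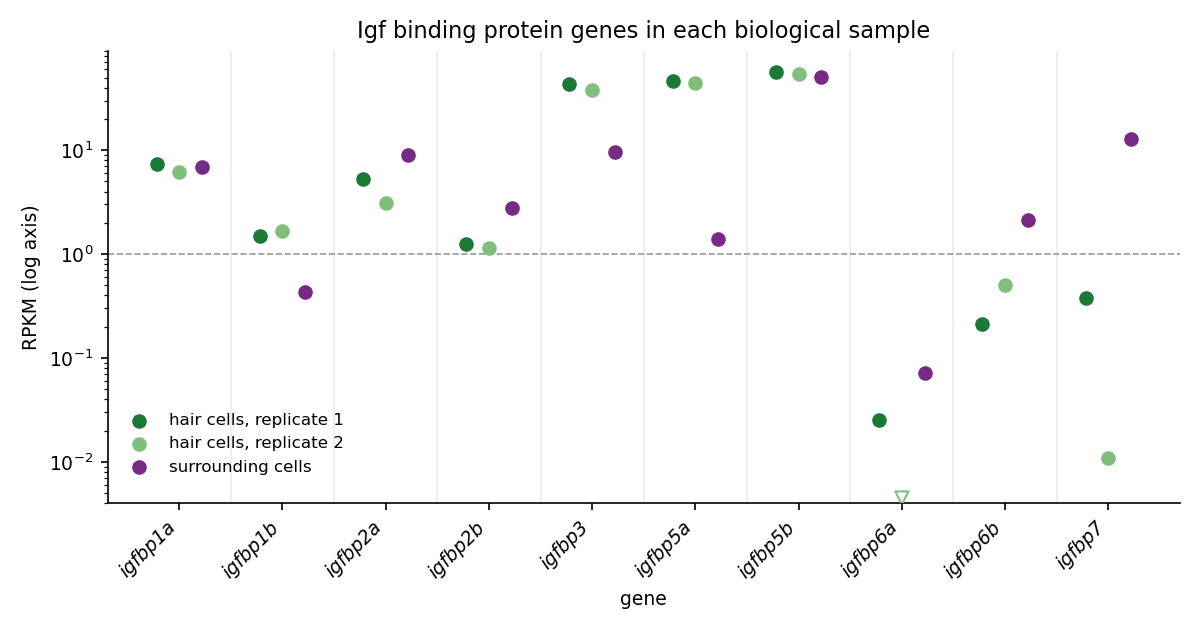
Level of each Igf binding protein gene in RPKM on a log axis, with 1 point for each biological sample (dark and light green, hair cell replicates 1 and 2; purple, surrounding cells). The dashed line marks 1 RPKM and an open triangle at the lower edge marks a value of 0. The points of igfbp5a and igfbp3 are far higher in hair cells, those of igfbp7 and igfbp6b lower, and those of igfbp5b and igfbp1a lie together.

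The gene igfbp5a (ENSDARG00000039264, chromosome 6) encodes a binding protein that in mammals also attaches to the extracellular matrix. Hair cell replicate 1 had 46.1 RPKM and replicate 2 had 44.5 RPKM, against 1.40 RPKM in surrounding cells. The replicates differed by 1.04-fold, and both lay far above the surrounding cells. On the log2 scale igfbp5a was 4.27±0.21 higher (SE, adjusted p = 0.00719 by limma). From reads, 3141 and 9724 in the hair cell replicates against 103 in the surrounding cells, the ratio was 32.8 in replicate 1 (95% exact interval 27.0 to 40.4) and 31.7 in replicate 2 (26.1 to 38.9). These intervals cover counting error only, since reads were not collapsed to molecules.

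The gene igfbp3 (ENSDARG00000099144, chromosome 20) encodes the protein that in mammals carries most Igf in the blood. Hair cell replicate 1 had 42.9 RPKM and replicate 2 had 37.8 RPKM, against 9.53 RPKM in surrounding cells. Both replicates were above the surrounding cells, by 1.97±0.22 on the log2 scale (SE, adjusted p = 0.0111 by limma). By reads the ratio was 4.50 in replicate 1 (95% exact interval 4.20 to 4.82) and 3.96 in replicate 2 (3.72 to 4.23). Unlike igfbp5a, igfbp3 was well above 1 RPKM in the surrounding cells too, where more genes' levels lay below it (89.5% of all genes) than below igfbp5a (63.4%). In the hair cell replicates 96.9% and 96.1% of genes lay below igfbp3, and 97.1% and 96.7% below igfbp5a.

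The gene igfbp5b (ENSDARG00000025348, chromosome 9), the paralog of igfbp5a, had the highest level of the family in every sample. Hair cell replicate 1 had 56.4 RPKM and replicate 2 had 53.8 RPKM, against 50.5 RPKM in surrounding cells. The difference of 0.12±0.20 did not pass the test (SE, adjusted p = 0.652 by limma), with a 95% interval of -0.46 to 0.71, which leaves out a change of 1 in either direction under the assumption on the spread. Its sign turned with the scaling between samples, to -0.21 with median-ratio scaling and -0.35 with quantile normalization, and the gene was called in neither. The genes nearest to igfbp5b in level over the 3 samples, by Euclidean distance on log2(RPKM + 1), were creg2, eif2s2 and cbx3a, at distances of 0.124, 0.126 and 0.147.

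**Figure D2:**
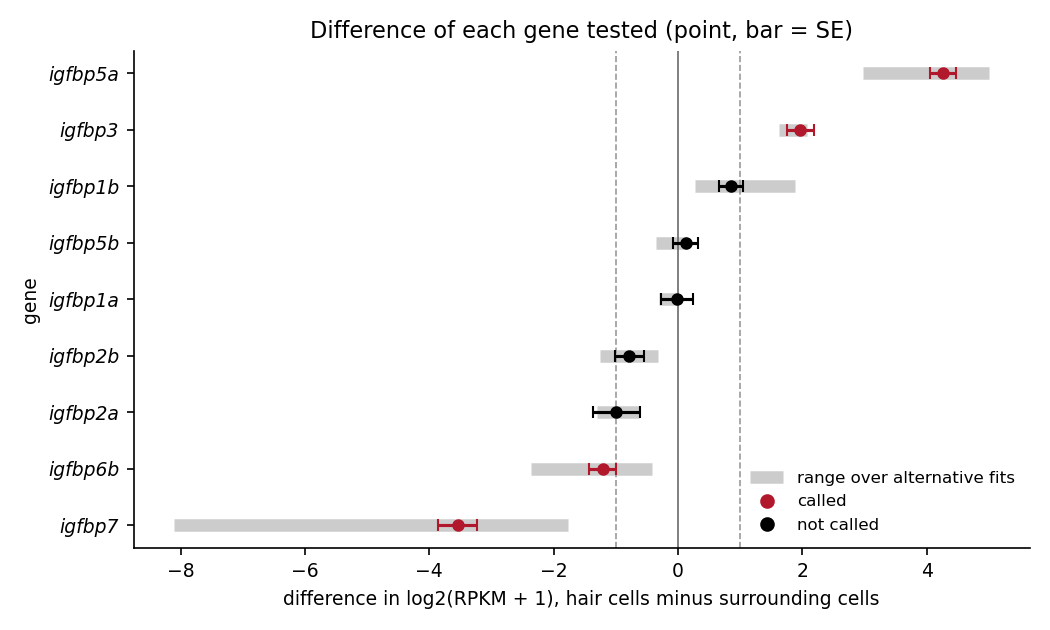
Difference in log2(RPKM + 1), hair cells minus surrounding cells, for the 9 members tested. Points are the fitted differences with bars of 1 SE, red for genes called and black for others, grey bars span the alternative fits that gave a test, and dashed lines mark -1 and 1. The genes igfbp5a, igfbp3 and igfbp7 lie beyond the dashed lines over the whole grey span, whereas that of igfbp6b crosses -1.

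The gene igfbp7 (ENSDARG00000104138, chromosome 14) encodes a relative of the family that in mammals binds Igf only weakly and is known from blood vessels. Hair cell replicate 1 had 0.380 RPKM and replicate 2 had 0.0109 RPKM, against 12.8 RPKM in surrounding cells. Both replicates were far below the surrounding cells, with a difference of -3.54±0.31 (SE, adjusted p = 0.00843 by limma). It had 11 reads in hair cell replicate 1 and 1 read in the deeper replicate 2, against 397 reads in the surrounding cells. Scaled to depth, replicate 1 was 35.3-fold above replicate 2 by reads, with a 95% exact interval of 5.13 to 1519. The surrounding cells were thus 33.5-fold above replicate 1 (95% exact interval 18.5 to 67.7) and 1183-fold above replicate 2 (211 to 46844). The direction was the same against both, but the size of the difference depended on the replicate.

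Endothelial markers moved in part with igfbp7. Of 8 such markers 6 were called lower in hair cells, against 18.0% of all genes tested. These 6, like igfbp7, reached 1 RPKM in the surrounding cells alone, so the filter itself favours this direction. The summed level of the 8 markers was 2.40 and 2.78 RPKM in the hair cell replicates against 32.3 RPKM in the surrounding cells. In replicate 2 the markers fli1a, pecam1 and egfl7 were at 0, although pecam1 had only 1 read in replicate 1. Of the 8 markers 5 were higher in replicate 1 than in replicate 2. The markers kdrl (0.405 and 0.703 RPKM), tie1 (0.144 and 0.836) and tek (0.579 and 1.13) were higher in replicate 2. In the surrounding cells tek was below both replicates, at 0.344 RPKM. Of the fibroblast and matrix markers 8 of 10 were called lower, against 18.0% of all genes tested. Of those called, all but col1a2 and dcn reached 1 RPKM in the surrounding cells alone. In this list 8 of 10 markers were higher in replicate 1. Its summed level was 159 and 196 RPKM in the hair cell replicates against 663 RPKM in the surrounding cells, with postnb at 0 in replicate 2. Of the pigment cell markers 4 of 5 were higher in replicate 1, with sums of 0.567 and 0.141 RPKM against 4.77 RPKM. These rested on few reads in replicates 1 and 2, tyrp1b on 30 and 1, mitfa 4 and 0, pmela 2 and 4, mlpha 1 and 0. Counts of this kind were not particular to these cell types, but they give the direction only and not its size. Replicate 1 was 1.81-fold above replicate 2 for pou4f3 and 1.01-fold for tecta, but 70.0-fold for lum, from 22 reads against 1. For tie1 the ratio of replicate 1 to replicate 2 was 0.173. Higher in replicate 1 were also 7 of 10 hair cell and 5 of 8 supporting cell markers, sox2 by only 1 read against 0. So were 6 of 8 glia and 5 of 8 leukocyte markers. The same held for 5 of 8 muscle, 4 of 7 epithelial and 4 of 4 red blood cell markers, and for 3 of 7 ionocyte markers. The part of other cell types in the igfbp7 values was not tested.

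The igfbp6 pair was low. The gene igfbp6b (ENSDARG00000090833, chromosome 23), whose mammalian counterpart prefers the ligand Igf2, had 0.214 RPKM in hair cell replicate 1 and 0.500 RPKM in replicate 2, against 2.13 RPKM in surrounding cells. Both replicates were below the surrounding cells, although they differed from each other by more than 2-fold. The difference was -1.21±0.21 (SE, adjusted p = 0.0258 by limma). The call was lost with a pseudocount of 0.1 RPKM (adjusted p = 0.0680), with no filter on low values (adjusted p = 0.0864) and, by the size of the difference, with a pseudocount of 5 RPKM (-0.41).

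Its paralog igfbp6a (ENSDARG00000070941, chromosome 11) was barely detected and was not tested. It had 1 read in hair cell replicate 1, 0 reads in replicate 2 and 3 reads in the surrounding cells. A count of 0 in replicate 2 allows a level of up to 0.0241 RPKM, the worth of 3 reads. No fold is given, since both groups were at or under that floor of 3 reads.

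The igfbp1 and igfbp2 genes were of middle or low level, and none of the 4 was called. The gene igfbp1a (ENSDARG00000099351, chromosome 20), known in fish to be induced by hypoxia and fasting, had 7.32 RPKM in hair cell replicate 1 and 6.17 RPKM in replicate 2, against 6.82 RPKM in surrounding cells. The surrounding cell value lay between the hair cell replicates. The difference was -0.02±0.26 (SE, adjusted p = 0.965 by limma) with a 95% interval of -0.79 to 0.75.

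The gene igfbp1b (ENSDARG00000038666, chromosome 2) had 1.50 RPKM in hair cell replicate 1 and 1.67 RPKM in replicate 2, against 0.430 RPKM in surrounding cells. The 3.68-fold ratio shrank to 0.85±0.19 on the log2(RPKM + 1) scale (SE, adjusted p = 0.0452 by limma), under the size needed for a call. The surrounding cell value rested on 23 reads, of which 17 fell in technical replicate 1 and 6 in technical replicate 2. With technical replicate 2 alone the difference was 1.11 and was called. With technical replicate 1 alone it was 0.62 and was not.

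The gene igfbp2a (ENSDARG00000052470, chromosome 6) had 5.22 RPKM in hair cell replicate 1 and 3.09 RPKM in replicate 2, against 9.05 RPKM in surrounding cells. The replicates were 1.69-fold apart, and the difference was -0.99±0.38 (SE, adjusted p = 0.125 by limma), with a 95% interval of -2.12 to 0.13. The gene igfbp2b (ENSDARG00000031422, chromosome 9) had 1.25 and 1.13 RPKM in hair cells, against 2.77 RPKM in surrounding cells, with a difference of -0.79±0.23 (SE, adjusted p = 0.0763 by limma). Both igfbp2 paralogs were thus lower in each hair cell replicate than in the surrounding cells, and neither passed the test.

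Within hair cells the order of mean levels was igfbp5b at 55.1±1.88 RPKM, igfbp5a at 45.3±1.15, igfbp3 at 40.3±3.62, igfbp1a at 6.75±0.814, igfbp2a at 4.16±1.51, igfbp1b at 1.58±0.122, igfbp2b at 1.19±0.0805, igfbp6b at 0.357±0.202, igfbp7 at 0.196±0.261 and igfbp6a at 0.0128±0.0181 (s.d., n = 2). The ranges of the replicates overlapped between igfbp6b and igfbp7 and between igfbp7 and igfbp6a, and between no other neighbours in that order. In surrounding cells the order was igfbp5b, igfbp7, igfbp3, igfbp2a, igfbp1a, igfbp2b, igfbp6b, igfbp5a, igfbp1b and igfbp6a, with no spread to set beside it. The gene igfbp5a thus stood in the second place in hair cells and close to the end in surrounding cells, and igfbp7 stood close to the end in hair cells and in the second place in surrounding cells.

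The family total was 161 and 149 RPKM in the hair cell replicates, against 95.4 RPKM in surrounding cells. The gap depends on the scaling between samples. Median-ratio scaling divides the hair cell replicates by 1.06 and 1.11 and the surrounding cells by 0.859, which narrows it. In hair cells igfbp3, igfbp5a and igfbp5b together made up 90.1% and 91.5% of the family total, against 64.3% in the surrounding cells. The share of igfbp5a alone was 28.6% and 29.9% in the hair cell replicates, against 1.47% in surrounding cells. The share of igfbp7 was 0.236% and 0.00731% in the hair cell replicates, against 13.4% in the surrounding cells, where igfbp5b took 52.9%.

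**Figure D3:**
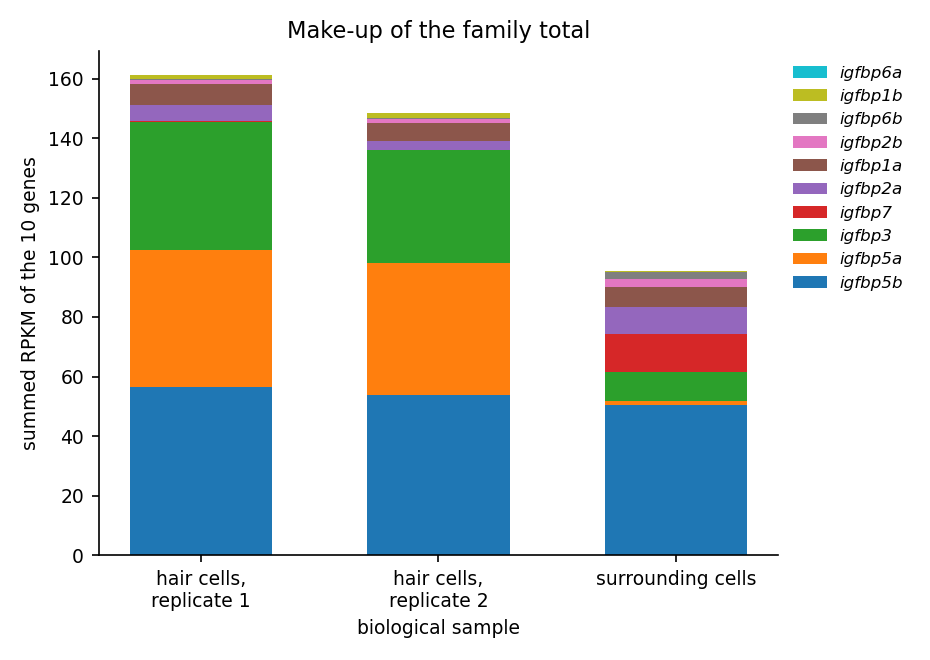
Summed RPKM of the 10 Igf binding protein genes in each biological sample, stacked by gene from igfbp5b at the bottom. The bars reach 161 and 149 RPKM in hair cells and 95.4 RPKM in the surrounding cells, and the igfbp5a segment that holds 28.6% and 29.9% of the hair cell bars is nearly gone from the surrounding cell bar.

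The balance within 2 of the paralog pairs, igfbp5 and igfbp1, lay apart between the groups. The ratio of igfbp5a to igfbp5b was 0.816 and 0.827 in the hair cell replicates, against 0.0278 in the surrounding cells. The ratio of igfbp1a to igfbp1b was 4.90 and 3.70 in the hair cell replicates, against 15.8 in the surrounding cells, where it was 10.5 in technical replicate 1 and 30.8 in technical replicate 2. For igfbp2a over igfbp2b the hair cell replicates gave 4.19 and 2.73 and the surrounding cells 3.26, so that the groups overlapped. These ratios were not tested.

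Of the members, 6 lie as 3 neighbouring pairs on the chromosomes, by the RefSeq gene table of assembly GRCz12tu, whose chromosome was the same as in the expression table for all 10 genes. That table also lists the a and b names of the igfbp2 and igfbp5 genes as synonyms of each other, so the names in the table are tied here to the identifiers and chromosomes given above. The pairs were set beside each other after their values were seen. No gene lies between igfbp5a and igfbp2a on chromosome 6, no protein-coding gene between igfbp5b and igfbp2b on chromosome 9, and 1, dsg2.2, between igfbp3 and igfbp1a on chromosome 20. The ratio of igfbp5a to igfbp2a was 8.82 and 14.4 in the hair cell replicates, against 0.155 in the surrounding cells. The ratio of igfbp3 to igfbp1a was 5.86 and 6.12 in the hair cell replicates, against 1.40 in the surrounding cells. The ratio of igfbp5b to igfbp2b was 45.3 and 47.5, against 18.2. In each of the 3 pairs the igfbp3 or igfbp5 gene was higher relative to its igfbp1 or igfbp2 neighbour in both hair cell replicates than in the surrounding cells.

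**Figure D4:**
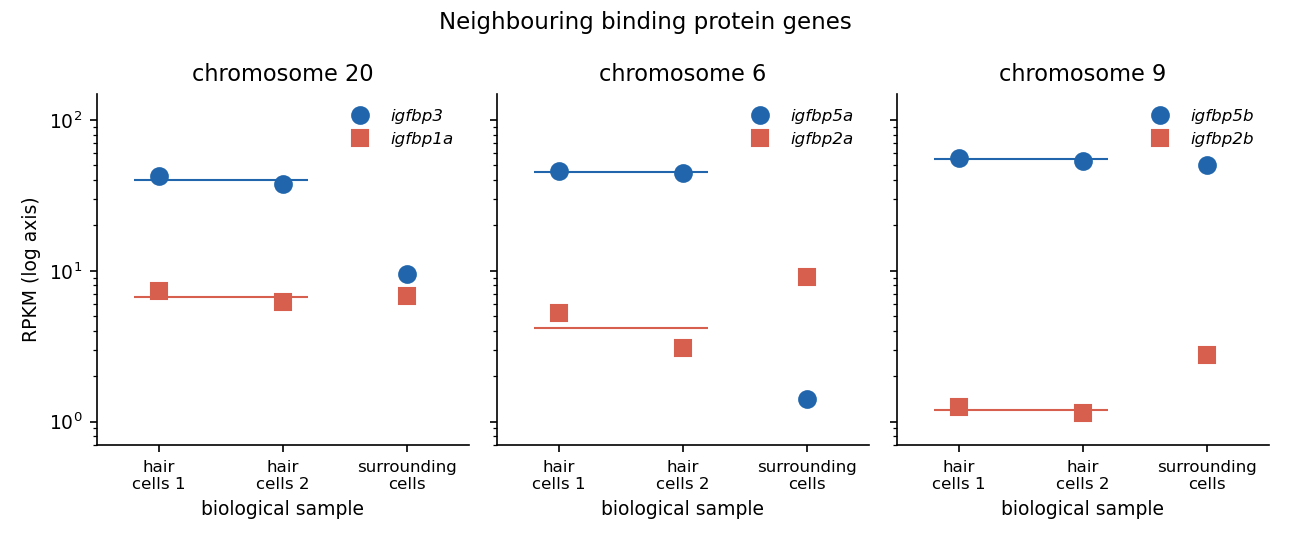
RPKM on a log axis of the 3 pairs of neighbouring members in the hair cell replicates and the surrounding cells, blue circles for the igfbp3 or igfbp5 gene and red squares for its igfbp1 or igfbp2 neighbour; lines mark the hair cell mean. On chromosome 6 the order of igfbp5a and igfbp2a is opposite in the groups, and on chromosomes 20 and 9 the gap between the genes is wider in hair cells.

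Of the Igf and insulin ligand genes, igf1 and igf2a were lower in hair cells. The gene igf2a had 0.706 RPKM in hair cell replicate 1 and 0.827 RPKM in replicate 2, against 20.6 RPKM in surrounding cells, and was lower (-3.62±0.27, SE, adjusted p = 0.00746 by limma). The gene igf1 stood at 2.33 and 0.995 RPKM in hair cells, against 10.05 RPKM in surrounding cells, with a difference of -2.10±0.44 (SE, adjusted p = 0.0374 by limma). Its call was lost in 3 of 10 alternative fits, with adjusted p up to 0.109. The most abundant ligand gene in each sample was igf2b, at 20.9 and 21.2 RPKM in hair cells and 32.4 RPKM in the surrounding cells, which was not called (-0.60, limma adjusted p = 0.0978).

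The other ligands were near 0. The gene igf3 had no reads, the insulin gene ins had at most 3 reads in a sample, and insb stood at 0.386 and 0.676 RPKM in hair cells against 0.138 RPKM in the surrounding cells. Of the 6 ligands 3 were tested, of which 2 were lower and none higher, against 18.0% and 17.7% of all genes tested. So few genes do not allow a reading of these shares, and igf2a reached 1 RPKM in the surrounding cells alone. The summed level of binding proteins over that of these 6 Igf and insulin genes was 6.63 and 6.26 in the hair cell replicates, against 1.51 in the surrounding cells.

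The receptors were low in both groups. Igf1 and insulin receptors are membrane kinases that start the signal inside the cell, whereas in mammals IGF2R takes up and clears IGF2. The genes igf1ra, igf1rb, igf2r and insra had 1.31±0.105, 1.89±0.299, 1.09±0.112 and 1.98±0.0457 RPKM in hair cells (s.d., n = 2), against 0.817, 1.82, 0.829 and 2.95 RPKM in the surrounding cells. None of these 4 was called by limma, with 0 at an unadjusted p under 0.05 and 0 called in the fit of recovered reads. Their differences ran from -0.41 for insra to 0.35 for igf1ra. The gene insrb did not reach 1 RPKM in any sample.

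The genes that act on the binding proteins included the most abundant of the ligand, receptor, partner and signalling genes in hair cells. This was stc2a, whose mammalian counterpart stanniocalcin 2 inhibits pappalysins, the proteases that cleave several Igf binding proteins. Hair cell replicate 1 had 111 RPKM and replicate 2 had 154 RPKM, against 16.7 RPKM in surrounding cells, and the gene was higher by 2.89±0.30 (SE, adjusted p = 0.00986 by limma). It was thus 1.96-fold and 2.87-fold above igfbp5b in the hair cell replicates, whereas in the surrounding cells igfbp5b was 3.01-fold above stc2a. The related gene stc1 had 4.11 and 6.32 RPKM in hair cells against 11.6 RPKM and was not called (-1.04, limma adjusted p = 0.0934). The genes stc1l and stc2b stood at or below 0.201 RPKM in all samples.

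The pappalysin genes pappa2 and pappab were low, with pappa2 at 0.0186 and 0 RPKM in hair cells against 0.229 RPKM and pappab at 0.0858 and 0.0248 RPKM against 0.484 RPKM. The genes of HtrA serine proteases, of which HTRA1 in mammals can cleave IGFBP5, went different ways. The gene htra1b was lower in hair cells, at 3.51 and 5.87 RPKM against 19.8 RPKM (-1.90, SE 0.37, limma adjusted p = 0.0324), and its call was lost with no filter on low values (adjusted p = 0.0966). Its paralog htra1a had 4.84 and 2.95 RPKM in hair cells against 0.967 RPKM and was not called (1.29, limma adjusted p = 0.0729). The gene htra3a had 0 reads in hair cells and 1.02 RPKM from 35 and 43 reads in the technical replicates of surrounding cells, and limma called it lower (-1.02, adjusted p = 0.00899). It passed the filter of 1 RPKM through the surrounding cells alone, and a gene at 0 in hair cells that does so differs by at least 1 on this scale, so the size of its difference was set by the filter. Its call held in 6 of 8 alternative fits and was lost with a pseudocount of 5 RPKM (-0.27) and with quantile normalization (-0.84). The gene igfals, whose product binds IGFBP3 and Igf together in mammalian blood, was at or below 0.0567 RPKM. In all, 10 of 13 partner genes were found and 5 tested. Of the 5, 1 was higher and 2 lower, htra3a included, against 17.7% and 18.0% of all genes tested, too few genes to read as shares. The genes igfbpl1, pappaa and htra3b were not found under these symbols and were not analysed here.

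**Figure D5:**
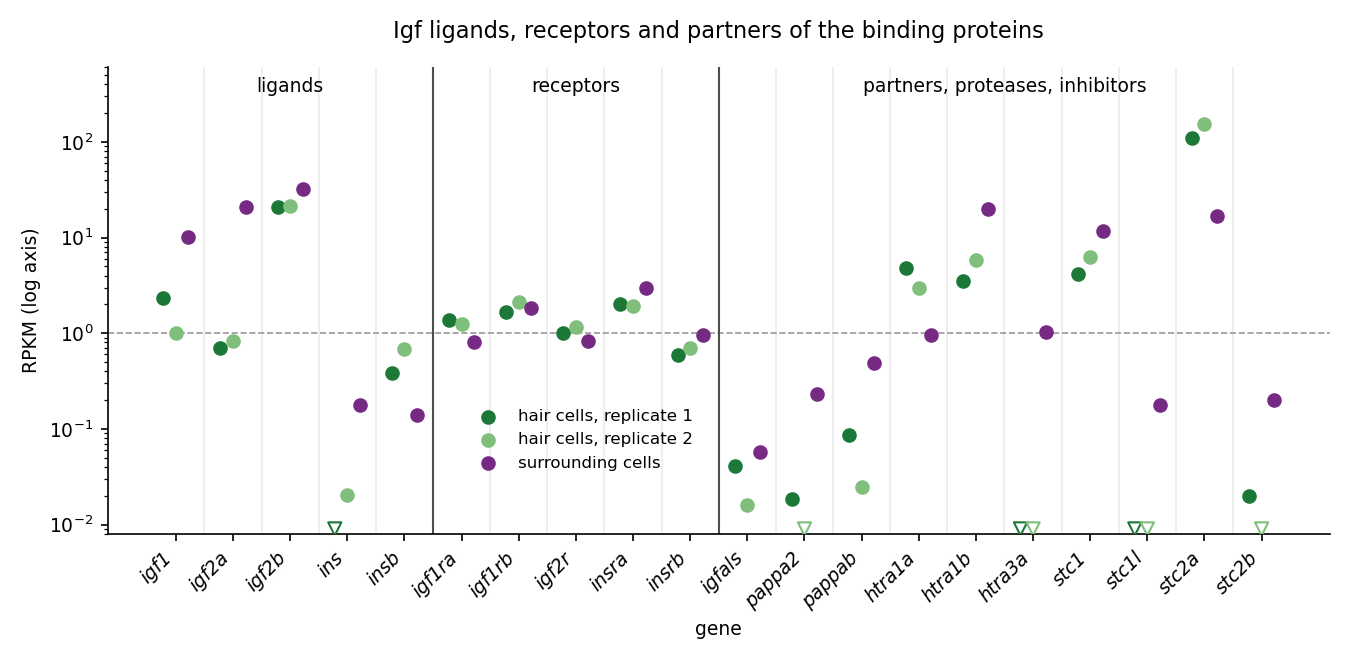
RPKM on a log axis of the Igf ligand, receptor and partner genes with a value above 0, with points for hair cell replicate 1 (dark green), hair cell replicate 2 (light green) and surrounding cells (purple); the dashed line marks 1 RPKM and open triangles a value of 0. The ligands igf1 and igf2a are lower in hair cells, the receptors lie close together near 1 RPKM, and stc2a stands highest, at 111 and 154 RPKM in hair cells against 16.7 RPKM.

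Inside the cell, genes of the Igf signal went both ways and mostly did not pass the test. Of 31 such genes found 27 were tested, with 3 (11.1%) higher and 2 (7.41%) lower, against 17.7% and 18.0% over all genes. Their median difference was 0.20, against 0.15. In the fit of recovered reads 5 were higher and 3 lower. So few calls do not allow these shares to be read as below the background. The kinase gene akt3a was higher, with 11.6±2.05 RPKM in hair cells against 1.44 RPKM (2.36, limma adjusted p = 0.0133). The S6 kinase gene rps6kb1a was higher by 1.40, with 9.81±0.208 RPKM against 3.10 RPKM, and its call held in 9 of 10 alternative fits. The adaptor paralogs grb10a and grb10b went opposite ways, at 6.40±0.210 RPKM against 19.4 RPKM for grb10a (-1.46) and 17.3±1.90 RPKM against 7.52 RPKM for grb10b. The call of grb10b held in only 5 of 10 alternative fits. The catalytic kinase subunit gene pik3cb was lower (-1.23), at 4.93±0.397 RPKM against 12.9 RPKM, and its call held in 8 of 10 alternative fits.

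The ionocyte markers were set beside igfbp5a, since that gene is known from these cells in the skin. Of the ionocyte markers 3 of 3 tested were lower in hair cells, against 18.0% of all genes tested, too few genes to read as a share. Their summed level was 27.3 and 27.3 RPKM in the hair cell replicates against 85.8 RPKM in the surrounding cells. Most of these sums came from ca2 (16.7 and 16.9 RPKM against 53.1) and atp1a1a.1 (10.1 and 9.97 RPKM against 27.4), both among those tested. The marker foxi1, also tested, was at 0 in hair cells against 4.78 RPKM in surrounding cells. It passed the filter through the surrounding cells alone, so a difference of at least 1 was set by the filter. The related foxi3a had 0.0592 RPKM (3 reads) and 0 RPKM in the hair cell replicates against 0.164 RPKM. For foxi3b, at 0 in hair cells, the surrounding cells had 0.0225 RPKM from only 1 read. The marker slc12a10.2 had 0.0198 and 0.0231 RPKM in hair cells against 0.215 RPKM, and trpv6 stood at 0.506 and 0.400 RPKM against 0.230 RPKM. Of the supporting cell markers 6 of 7 tested were higher in hair cells, as igfbp5a and igfbp3 were, against 17.7% of all genes tested. The other, fgfr3, was lower. Of the 6, tecta and otogl reached 1 RPKM in hair cells alone, so for them the filter favours this direction. The list summed to 1784 and 1979 RPKM in hair cells against 28.1 RPKM. The sums of the other marker lists were 79.5 and 61.0 RPKM in hair cells against 202 RPKM for glia, 68.7 and 51.1 against 1073 for leukocytes, 289 and 104 against 386 for red blood cells, and 13.7 and 15.9 against 164 for muscle. Of those tested, 3 of 6 glia, 5 of 7 leukocyte and 6 of 7 muscle markers were lower, and 1 leukocyte marker (lyz) and 1 muscle marker (desma) were higher. Over all genes tested 18.0% were lower and 17.7% higher. The 6 muscle markers, the glia marker erbb3b and the leukocyte markers ptprc, coro1a and lcp1 reached 1 RPKM in the surrounding cells alone. The markers lyz and desma reached it in hair cells alone. For these genes the filter favours the direction seen. No red blood cell marker of 4 was called by limma, and 0 had an unadjusted p under 0.05. In the fit of recovered reads 2 were lower. The part of these cell types in the levels of the family was not tested.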

How the data were processed

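RNA was prepared with a Qiagen miRNeasy kit, and libraries with Clontech Smart-Seq chemistry. Reads were mapped to GRCz10, per the submitters' processing notes. Not given in the sources used here were the aligner, counter, annotation and strand setting. Values were deposited by the authors as RPKM per library, with an identifier, symbol and chromosome for each gene. Their 4 columns of averages and standard deviations were not used, and 1 row repeated in full was dropped.

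Technical replicates were averaged on the RPKM scale. They agreed within sampling noise, with 1 of 29 exact binomial tests on reads at p under 0.05 and a lowest adjusted p of 0.941. The labels call the hair cell samples biological replicates and name no fish. Genes of at least 1 RPKM in a biological sample were compared on log2(RPKM + 1), a scale that understates changes of low genes, with limma 3.58.1 in R 4.3.3. The variance followed mean expression, with 1 residual degree of freedom and 3.42 after moderation. The method was tested on simulated data. Mapped totals and whole reads were recovered from the steps between RPKM values, for all 15803 genes tested within 0.001 of a read. The reads are the fewest that fit these steps. Intervals use a level of 95%.

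Members, lists and tests were chosen with earlier results of these data known. All members, all ligands, receptors and partners found in the table, and the called signalling genes with the largest differences (up to 6) are named, and the 3 genes nearest in level to the most abundant member. Alternatives changed the pseudocount, filter, scaling, variance model, unit and technical columns, or left out a hair cell replicate.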

Additional observations from a re-analysis of the deposited data

How the results depend on the processing

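The calls of igfbp3, igfbp5a and igfbp7 held in all 10 alternative fits with a test, with log2 differences of 1.62 to 2.07 for igfbp3, at least 2.97 for igfbp5a and -8.10 to -1.77 for igfbp7. That of igfbp6b held in 6 of 9. The members called lower numbered 1, against 2, with a pseudocount of 0.1 RPKM, a pseudocount of 5 RPKM, no filter and a filter of 5 RPKM, which removes igfbp6b from the test. Not called as reported, igfbp1b was called with quantile normalization (1.05), igfbp2a with quantile normalization (-1.24) and in the fit of recovered reads (-1.31), and igfbp2b with median-ratio scaling (-1.01). Pathway genes called higher numbered 2, against 4, with a pseudocount of 5 RPKM, and those called lower 3, against 6, with no filter. Over all genes, 2799 higher and 2851 lower became 1603 and 1225 with a pseudocount of 5 RPKM and 1464 and 1740 with no filter. With a filter of 5 RPKM they were 2709 and 1713. The causes were not tested. Higher genes were 49.5% of calls, against 61.3% with the filter of 5 RPKM and 38.2% with median-ratio scaling.

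Median-ratio scaling shifted the median of all genes by -0.29 and quantile normalization by -0.12, and igfbp5b reversed with both, to -0.21 and -0.35. Relative to the median of all genes, igfbp5b stood at -0.03 as reported, -0.07 with median-ratio scaling and -0.38 with quantile normalization. Without either hair cell replicate no test remained. Without replicate 1 and without replicate 2, in that order, the differences were 1.88 and 2.06 for igfbp3, 4.24 and 4.29 for igfbp5a, -1.06 and -1.37 for igfbp6b and -3.77 and -3.32 for igfbp7. No paired analysis was possible because the groups share only replicate number 1. Depth limits igfbp6a, at 4 reads in all, and igfbp7 in hair cells, at 12.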

Other observations

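The Igf2 mRNA binding protein genes share part of their name with the family but encode RNA-binding proteins of the cytoplasm. The gene igf2bp2b (ENSDARG00000099758) had 3.46 RPKM in hair cell replicate 1 and 3.03 RPKM in replicate 2, against 23.8 RPKM in surrounding cells, and was lower (-2.55±0.25, SE, adjusted p = 0.00926 by limma). Its paralog igf2bp2a had 2.03±0.157 RPKM in hair cells against 0.978 RPKM and was not called (0.61, limma adjusted p = 0.127). The gene igf2bp3 had 1.16±0.331 RPKM in hair cells against 2.25 RPKM and was not called either (-0.60, limma adjusted p = 0.162). The gene igf2bp1 did not reach 1 RPKM. Of these 4 genes 3 were tested, with 1 lower and none higher, against 18.0% and 17.7% of all genes tested.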
